A study of Homo sapiens with 24 samples.

Results

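The group described here holds 10 genes that set or carry epithelial identity or the adhesion molecules that change with it: the cadherins CDH1, CDH2, CDH3 and CDH11, the adhesion molecule EPCAM, the splicing regulators ESRP1 and ESRP2, and the transcription factors OVOL1, OVOL2 and GRHL2. They were chosen by name for their known roles, from 20163 protein-coding genes in the annotation, by a rule that uses no measured value, although earlier results of these data were known. For each gene, windows reaching 5 kb to either side of every annotated transcription start site (TSS) were taken on hg19, and the base pairs (bp) of these windows that lay under peaks were summed in each peak list. Peaks in the rest of the gene body were recorded apart from them. The lists came from chromatin immunoprecipitation followed by sequencing (ChIP-seq) of H3K4me3, H3K27ac and H3K27me3 in PANC-1 cells, an established line from a human pancreatic ductal carcinoma. Each mark was profiled in 3 groups with 2 libraries per group, 18 lists in all, and paired values below give replicate 1 and then replicate 2. The groups were cells with a control siRNA and no TGFβ (siControl), cells with the control siRNA and TGFβ at 10 ng/ml for 48 h (siControl+TGFβ), and cells with an siRNA against PHF13 and the same TGFβ treatment (siPHF13+TGFβ). All cells therefore carried an siRNA, no group had PHF13 depletion without TGFβ, and all 18 lists came from 1 cell line.

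CDH1 (E-cadherin) joins epithelial cells at adherens junctions, where catenins tie it to actin, and in epithelial-to-mesenchymal transition (EMT) it is typically lost while CDH2 (N-cadherin) is gained. The ESRP proteins keep epithelial splice forms, and GRHL2 and the OVOL zinc finger proteins hold back EMT. SNAI and ZEB repressors bind E-box sequences in epithelial promoters such as that of CDH1. H3K4me3 marks promoters, H3K27ac marks active promoters and enhancers, and H3K27me3 is laid down by Polycomb repressive complexes. A promoter with both H3K4me3 and H3K27me3 is called poised or bivalent.

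PHF13, the siRNA target, had H3K4me3 over 2637 and 3010 bp (siControl), 3018 and 3084 bp (siControl+TGFβ) and 2205 and 3018 bp (siPHF13+TGFβ). Peak lists hold no RNA or protein level, so these values do not check the knockdown. The peak names inside the siControl+TGFβ lists read 3AT, and those inside the siPHF13+TGFβ lists read NCT, an abbreviation the study uses for siControl+TGFβ. The labels were followed. Every direction between these 2 groups, and every comparison of siControl+TGFβ with siControl, holds only if they are right, since exchanged labels would put the shortest lists in siControl+TGFβ. siPHF13+TGFβ replicate 1 had the shortest list of all 3 marks, with 27869 H3K4me3, 6004 H3K27ac and 59573 H3K27me3 peaks. The other lists held 30770 to 39202, 19413 to 36104 and 98211 to 165717 peaks. Of ductal and simple epithelial genes, KRT8, KRT18, KRT19 and SOX9 had H3K4me3 in all 6 lists, and KRT7 had none in 3 of them. The mesenchymal genes VIM, FN1 and ZEB1 also had it in 6 of 6, whereas 0 of 3 leukocyte genes did, and CDH5 (endothelial) and ALB (hepatocyte) had none in any list.

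To place the marks on sequence, 260 bases around the start sites were read from GRCh37. They run from 230 bases upstream of the TSS to 29 bases downstream of it, 5′ to 3′ on the strand of the gene. CDH2 is shown as the cadherin promoter with H3K27ac, and the 5′ end of EPCAM as the start region of that gene that carried H3K27ac. Each was searched for the E-box hexamers CAGGTG and CACCTG, which are the same motif on the opposite strands, and all letters are in lower case because neither sequence holds one.
CDH2, chr18:25757065-25757324, minus strand: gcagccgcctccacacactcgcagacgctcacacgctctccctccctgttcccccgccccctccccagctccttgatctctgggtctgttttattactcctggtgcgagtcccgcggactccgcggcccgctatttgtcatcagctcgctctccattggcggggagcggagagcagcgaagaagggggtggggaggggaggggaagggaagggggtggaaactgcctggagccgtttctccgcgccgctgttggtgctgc
EPCAM, 5′ end, chr2:47572067-47572326, plus strand: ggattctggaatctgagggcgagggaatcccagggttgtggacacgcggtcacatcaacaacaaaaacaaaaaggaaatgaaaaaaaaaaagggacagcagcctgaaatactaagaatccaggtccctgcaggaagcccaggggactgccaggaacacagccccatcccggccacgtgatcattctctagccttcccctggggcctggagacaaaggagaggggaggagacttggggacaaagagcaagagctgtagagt

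In the same window of the other promoters, CDH1 and the canonical EPCAM promoter held 3 of these E-boxes each, and ESRP2 held 1. CDH3 had 3, and ESRP1, OVOL2 and GRHL2 had 1 each. The CDH11 and OVOL1 promoters, like that of CDH2, held none. Thus 7 of 10 genes had a match, beside 17.5% of canonical promoters of all 20163 coding genes. A match is a description of letters, not of binding. In 1001 bp centred on the TSS, OVOL1 had 129 CpG dinucleotides, CDH2 118, and the canonical EPCAM promoter and ESRP2 101 each, against a median of 66 over all coding genes. The 5′ start region of EPCAM had 16. ESRP1, with 41, and GRHL2, with 48, were the lowest of the canonical promoters in the group.

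To describe the promoter marks, the genes were first grouped by which marks they carried across the 6 lists of each mark. CDH1, CDH3, CDH11, ESRP1, OVOL1 and OVOL2 had H3K4me3 in all 6 lists, H3K27ac in none and H3K27me3 in at least 5. This combination was present at 1675 coding genes, 8.31% of all. CDH2 and ESRP2 had H3K4me3 in all 6 lists, H3K27ac in at least 5 and no H3K27me3, which was the state of 36.8% of coding genes. EPCAM carried all 3 marks in every list, as 1.45% of coding genes did, although at separate start sites. Some of these peaks were weak. The strongest H3K27me3 peak had a −log10 q of 1.39 to 1.86, where the lists reach down to 1.00. With lists cut to equal length by keeping their strongest peaks, EPCAM kept H3K27ac in 1 list and H3K27me3 in 3. GRHL2 had no peak of any mark in its windows, which it shared with 1456 coding genes, 7.22% of all. 7 of the 10 genes thus had no promoter H3K27ac in any list, beside 34.2% of coding genes. When only the TSS of the canonical transcript was used, EPCAM joined the first state, which then held 7 of the 10 genes and 8.46% of coding genes. When only the stronger 50% of peaks were kept, 0 of the 10 genes and 4.14% of coding genes were in it.

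CDH1 (E-cadherin, ENSG00000039068) lies at chr16:68771195-68869440 on the plus strand, next to CDH3. H3K4me3 covered 1517 and 1502 bp without TGFβ, 1571 and 1159 bp with TGFβ, and 1157 and 1410 bp with TGFβ and PHF13 depletion. The peaks lay between −268 and 1431 bp from the TSS, over exons 1 and 2. In length, siControl+TGFβ overlapped both other groups, and both siPHF13+TGFβ libraries were below both siControl libraries. Each peak was also given a percentile within its own list by its −log10 q, where 100 is the strongest peak and 0 means no peak. This ranks significance, not height, and depends on the other peaks of the list. The strongest CDH1 H3K4me3 peak stood at 83.4 and 55.7 in the siControl libraries, 50.05 and 43.6 in those with TGFβ and 88.3 and 56.4 in those with TGFβ and siPHF13. Both siControl+TGFβ libraries were therefore below all 4 others in rank. The −log10 q itself was 22.07 and 25.09 (siControl), 18.77 and 11.17 (siControl+TGFβ) and 21.03 and 25.34 (siPHF13+TGFβ). In siControl and siPHF13+TGFβ the replicates were thus in the opposite order to their ranks. The median −log10 q of those lists was 10.2 and 20.2 (siControl) and 9.55 and 20.1 (siPHF13+TGFβ). The fold enrichment over input, as the authors' peak caller gave it, was 9.56 and 7.48 (siControl), 7.04 and 7.66 (siControl+TGFβ) and 9.19 and 7.78 (siPHF13+TGFβ). On that scale siControl+TGFβ overlapped siControl, and both siPHF13+TGFβ libraries were above both siControl+TGFβ libraries. H3K27me3 covered 773 and 1268 bp without TGFβ, 1607 and 1606 bp with TGFβ, and 0 and 1246 bp with TGFβ and PHF13 depletion. It was longest in both siControl+TGFβ libraries. No H3K27ac peak was listed in the windows or body of CDH1 in any library. A further H3K4me3 peak 7329 to 8049 bp downstream of the TSS, in intron 2, was listed in siControl replicate 2 and siPHF13+TGFβ replicate 2.

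**Figure D1:**
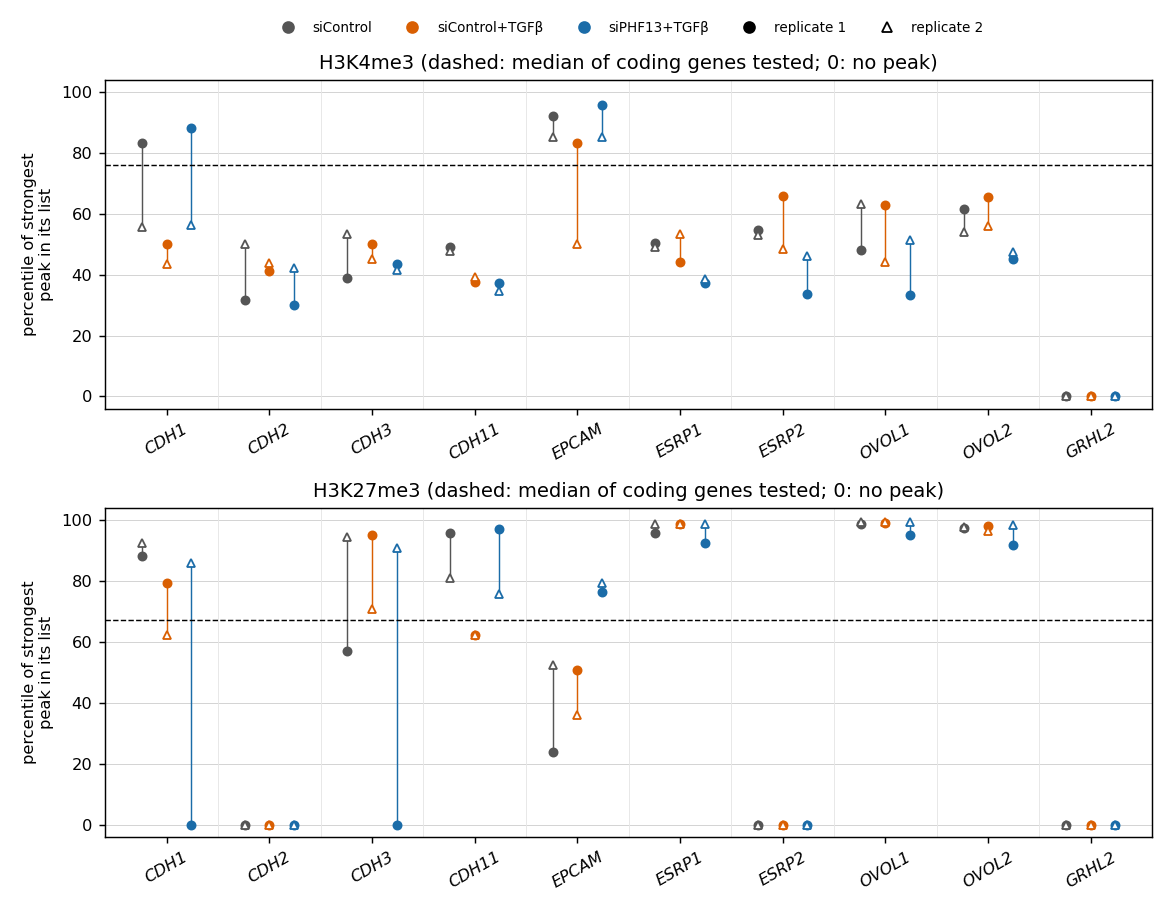
Percentile of the strongest peak of each gene within its own list (100 is the strongest peak by −log10 q, 0 is no peak), by mark and library, with 1 point per library and 2 libraries per group. For H3K4me3, CDH1 and EPCAM are lower in both siControl+TGFβ libraries than in all siControl and siPHF13+TGFβ libraries.

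CDH2 (N-cadherin, ENSG00000170558) lies at chr18:25512843-25757910 on the minus strand. It had the longest H3K4me3 of the cadherins in each of the 6 lists, 1633 and 2861 bp in the siControl libraries, 3364 and 2974 bp in those with TGFβ and 1676 and 3042 bp in those with TGFβ and siPHF13. Both siControl+TGFβ libraries were above both siControl libraries, and siPHF13+TGFβ overlapped siControl+TGFβ. H3K27ac, between −846 and 910 bp from the TSS, covered 0 and 354 bp (siControl), 1551 and 380 bp (siControl+TGFβ) and 158 and 1662 bp (siPHF13+TGFβ). The siControl+TGFβ libraries differed from each other more than the second of them differed from siControl replicate 2. The rank of that peak was 0 and 8.46 without TGFβ, 47.8 and 25.9 with TGFβ, and 23.6 and 37.6 with TGFβ and PHF13 depletion. H3K27me3 was absent from the windows and the body of CDH2 in all 6 lists. CDH2 was the only one of the 4 cadherins with promoter H3K27ac and the only one without H3K27me3.

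CDH3 (P-cadherin, ENSG00000062038), at chr16:68670092-68761371 on the plus strand, had H3K4me3 over 939 and 1122 bp in the siControl libraries, 1191 and 1406 bp in those with TGFβ and 541 and 1021 bp in those with TGFβ and siPHF13. The peaks lay around its canonical TSS, 9121 bp inside the annotated 5′ end. Both siControl+TGFβ libraries were above all 4 others. H3K27me3 covered 1919 and 4431 bp (siControl), 4663 and 3680 bp (siControl+TGFβ) and 0 and 2920 bp (siPHF13+TGFβ), so that siPHF13+TGFβ was below siControl+TGFβ in both libraries. CDH11 (OB-cadherin, ENSG00000140937), which is typical of mesenchymal cells, lies at chr16:64977656-65160015 on the minus strand. Its H3K4me3 covered 947 and 1642 bp without TGFβ, 1785 and 1237 bp with TGFβ, and 1207 and 1471 bp with TGFβ and PHF13 depletion. Its H3K27me3 covered 1791 and 6840 bp in the siControl libraries, 5391 and 4152 bp in those with TGFβ and 568 and 4144 bp in those with TGFβ and siPHF13. The H3K27me3 groups of siControl+TGFβ and siPHF13+TGFβ were separated by 8 bp, and those of H3K4me3 overlapped. The mesenchymal cadherins CDH2 and CDH11 thus differed in their marks, while CDH11 carried the combination of CDH1 and CDH3.

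EPCAM, a homophilic adhesion molecule of epithelia (ENSG00000119888), lies at chr2:47572297-47614740 on the plus strand and has start sites in 2 regions 24153 bp apart. At the upstream region, H3K4me3 covered 1358 and 1439 bp (siControl), 1670 and 1453 bp (siControl+TGFβ) and 1306 and 1576 bp (siPHF13+TGFβ). At the canonical TSS, the siControl libraries had 1369 and 1432 bp, those with TGFβ 1385 and 1140 bp, and those with siPHF13 as well 1276 and 1418 bp. Both siControl+TGFβ libraries were above both siControl libraries at the upstream region, and at the canonical TSS these groups overlapped. The siPHF13+TGFβ libraries overlapped siControl+TGFβ at both. H3K27ac was listed only at the upstream region, over 422 and 903 bp without TGFβ, 1415 and 1280 bp with TGFβ, and 252 and 1379 bp with TGFβ and PHF13 depletion. H3K27me3 was listed only near the canonical TSS, over 222 and 2197 bp in the siControl libraries, 1830 and 1663 bp in those with TGFβ and 707 and 1621 bp in those with TGFβ and siPHF13. EPCAM-DT, a noncoding gene, starts at −24237 bp from the canonical TSS, beside the upstream region, so that the 2 genes share the marks there. The percentile of the strongest H3K4me3 peak of EPCAM was 92.2 and 85.4 (siControl), 83.4 and 50.03 (siControl+TGFβ) and 95.8 and 85.3 (siPHF13+TGFβ). Taken over both regions, the siControl+TGFβ libraries were below the other 4. At the upstream region alone, the values were 92.2 and 73.8 without TGFβ, 83.4 and 43.9 with TGFβ, and 95.8 and 85.3 with TGFβ and PHF13 depletion, so that siControl+TGFβ overlapped siControl and was below siPHF13+TGFβ. At the canonical TSS alone, they were 75.3 and 85.4, 82.2 and 50.03, and 79.8 and 80.1, and the groups overlapped.

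**Figure D2:**
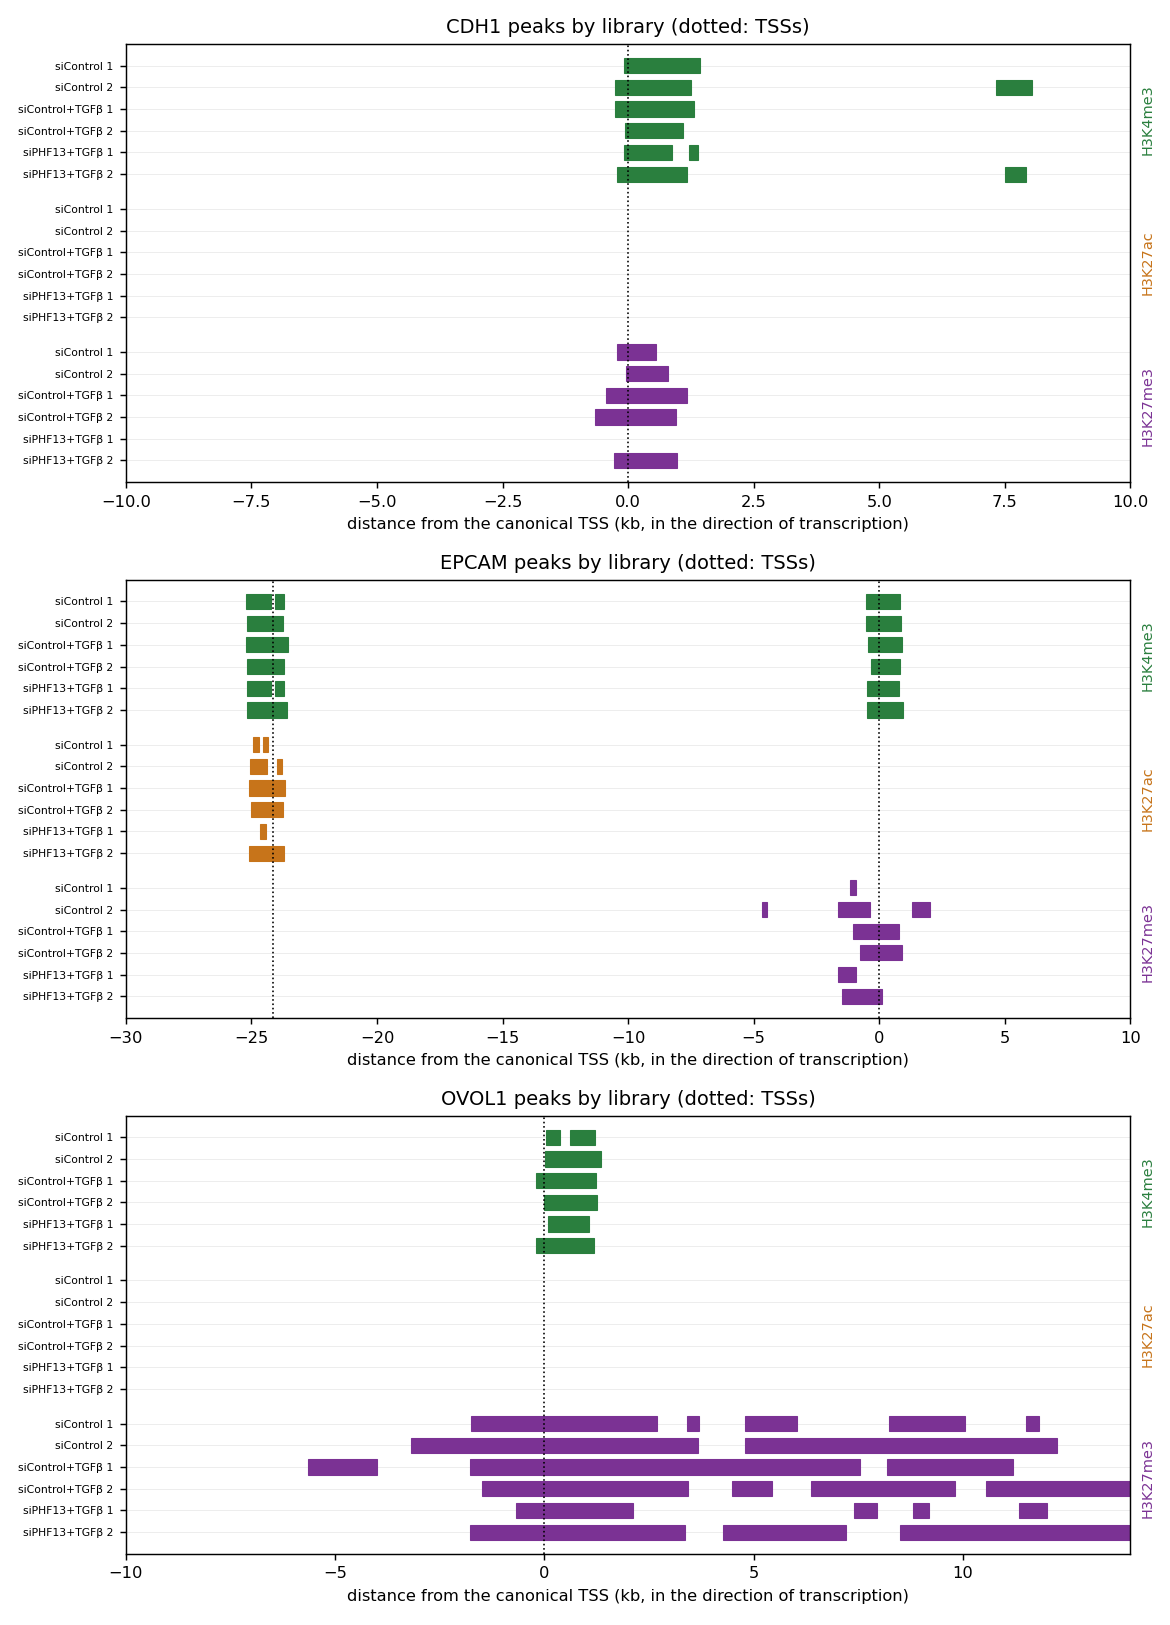
Peaks at CDH1, EPCAM and OVOL1 by mark and library, as bars over the distance from the canonical TSS in kb along the strand of the gene. EPCAM shows H3K4me3 at both start regions, H3K27ac at the upstream one and H3K27me3 near the canonical TSS, whereas at OVOL1 the H3K4me3 peak lies inside a longer H3K27me3 domain.

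The ESRP genes, whose products act on many of the same epithelial exons, differed in H3K27ac and H3K27me3. ESRP2, at chr16:68262936-68272005 on the minus strand, had H3K4me3 over 1929 and 2534 bp without TGFβ, 2740 and 2569 bp with TGFβ, and 2108 and 2813 bp with TGFβ and PHF13 depletion. H3K27ac, from −2215 to −268 bp of the TSS, covered 1497 and 1581 bp in the siControl libraries, 1622 and 1692 bp in those with TGFβ and 182 and 1860 bp in those with TGFβ and siPHF13. The siControl+TGFβ libraries were above siControl by at least 41 bp in H3K27ac, and the siPHF13+TGFβ libraries lay on both sides of them. ESRP2 had no H3K27me3. ESRP1, at chr8:95653302-95719694 on the plus strand, had no H3K27ac, and its H3K4me3 covered 984 and 2557 bp (siControl), 2959 and 1974 bp (siControl+TGFβ) and 641 and 2036 bp (siPHF13+TGFβ). H3K27me3 covered 18283 and 26157 bp of its windows without TGFβ, 18577 and 24575 bp with TGFβ, and 9123 and 22258 bp with TGFβ and PHF13 depletion. This was the longest H3K27me3 of the group in each of the 6 lists, but the windows differ in size, 35145 bp at ESRP1 and 18450 bp at OVOL2. As a share of the windows, OVOL2 was above ESRP1 in all 6 lists. The 3 groups overlapped at ESRP1, with siPHF13+TGFβ replicate 1 the shortest. Peaks of the same mark also covered 25.2% and 41.7% of the rest of the ESRP1 gene body in the siControl libraries, 10.7% and 45.8% in those with TGFβ and 9.34% and 40.9% in those with TGFβ and siPHF13.

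OVOL1, at chr11:65554534-65564685 on the plus strand, had the highest-ranked H3K27me3 peak of the group in 5 of 6 lists, CDH11 being higher in siPHF13+TGFβ replicate 1. Its percentile was 98.9 and 99.6 (siControl), 99.1 and 99.5 (siControl+TGFβ) and 95.1 and 99.5 (siPHF13+TGFβ). The domain covered 7933 and 13702 bp of its windows without TGFβ, 13314 and 10429 bp with TGFβ, and 4027 and 11230 bp with TGFβ and PHF13 depletion. Together the lists placed it from −3182 to 18364 bp of the TSS, past the end of the gene. H3K4me3 lay within it and covered 947 and 1338 bp in the siControl libraries, 1430 and 1263 bp in those with TGFβ and 973 and 1372 bp in those with TGFβ and siPHF13. OVOL2, at chr20:17937623-18039832 on the minus strand, had H3K4me3 over 1768 and 2442 bp (siControl), 2260 and 1897 bp (siControl+TGFβ) and 992 and 2082 bp (siPHF13+TGFβ). Of its 18450 bp of windows, H3K27me3 took 11096 and 18450 bp without TGFβ, 14588 and 16821 bp with TGFβ, and 5226 and 16742 bp with TGFβ and siPHF13. In siControl replicate 2 the whole of its windows was thus under H3K27me3 peaks. Together the lists placed this domain from −6832 to 22919 bp of the TSS, past the windows. The mark also covered 5.76% and 21.4% of the rest of the OVOL2 gene body (siControl), 16.8% and 15.75% (siControl+TGFβ) and 1.19% and 8.49% (siPHF13+TGFβ). Neither OVOL gene had promoter H3K27ac in any list.

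**Figure D3:**
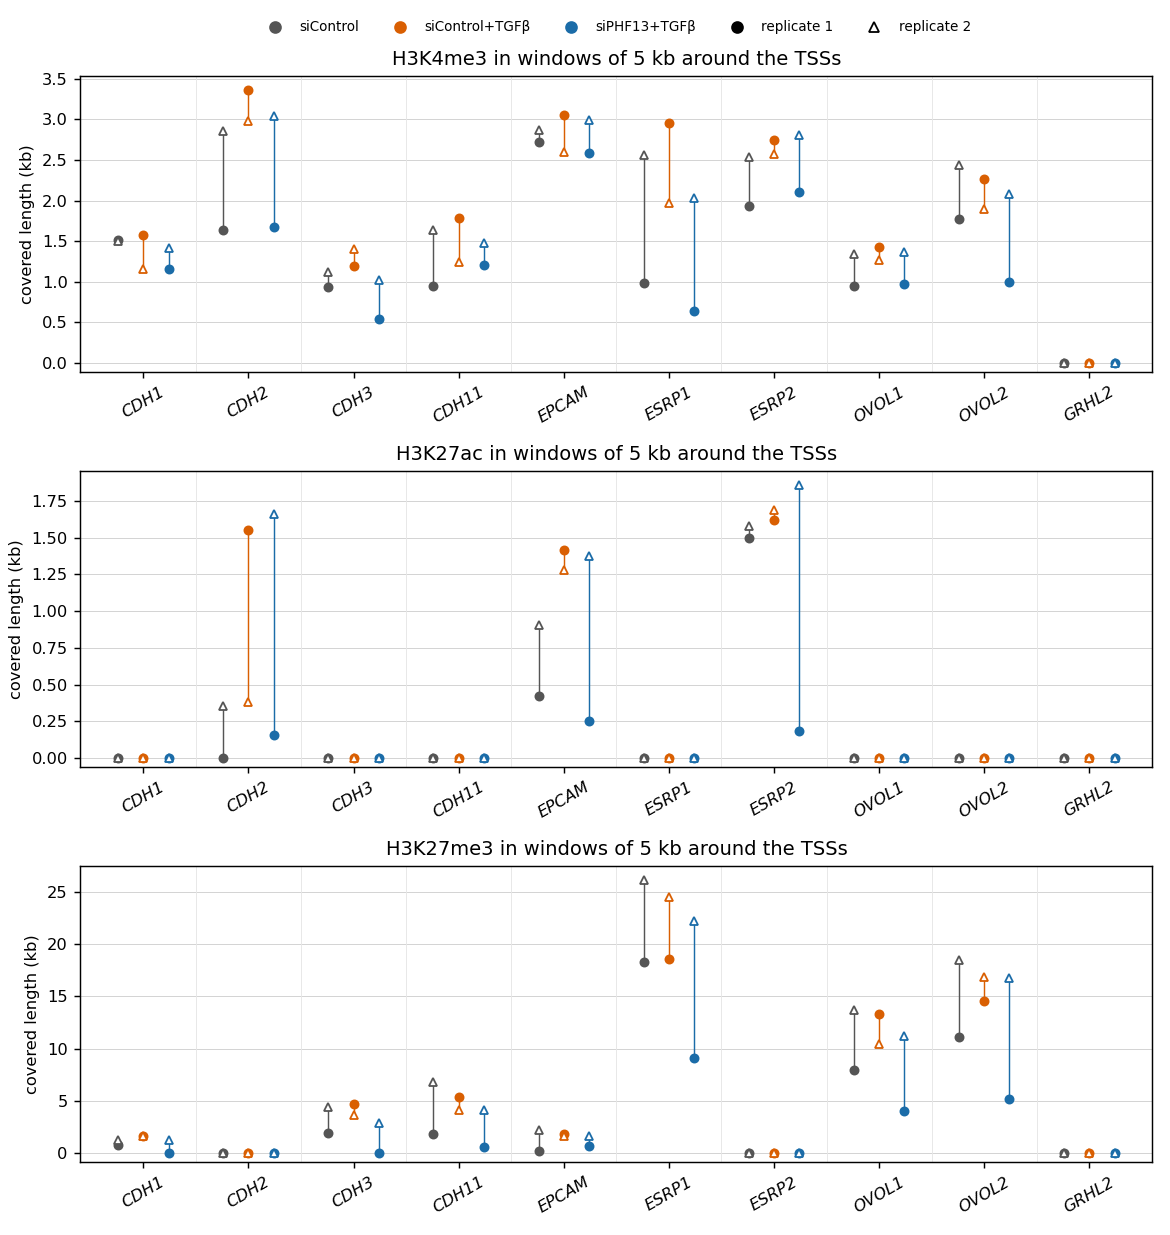
Length under peaks (bp) in the windows of each gene, by mark and library, with 1 point per library and 2 libraries per group. H3K27ac is 0 in all libraries for 7 of the 10 genes. H3K27me3 is longest for ESRP1, whose windows are 35145 bp against 18450 bp at OVOL2.

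GRHL2, at chr8:102504667-102681954 on the plus strand, was the gene of the group with no promoter mark in any list. Inside its body, at least 8850 bp from the TSS, H3K4me3 covered 810 and 3217 bp without TGFβ, 2956 and 1967 bp with TGFβ, and 159 and 926 bp with TGFβ and PHF13 depletion. H3K27ac in the body covered 630 and 793 bp in the siControl libraries, 1981 and 966 bp in those with TGFβ and 0 and 2895 bp in those with TGFβ and siPHF13. Both siControl+TGFβ libraries were above both siControl libraries in H3K27ac, and the siPHF13+TGFβ libraries lay on both sides of them. The H3K27ac peaks were in intron 1, at 8864 to 10059 and 11775 to 13401 bp from the TSS, in intron 8, at 114708 to 115433 bp, and in intron 12. The nearest TSS of another coding gene, that of NCALD, was at least 52135 bp from each of them. None of these peaks was among the strongest 6004 of its H3K27ac list.

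**Figure D4:**
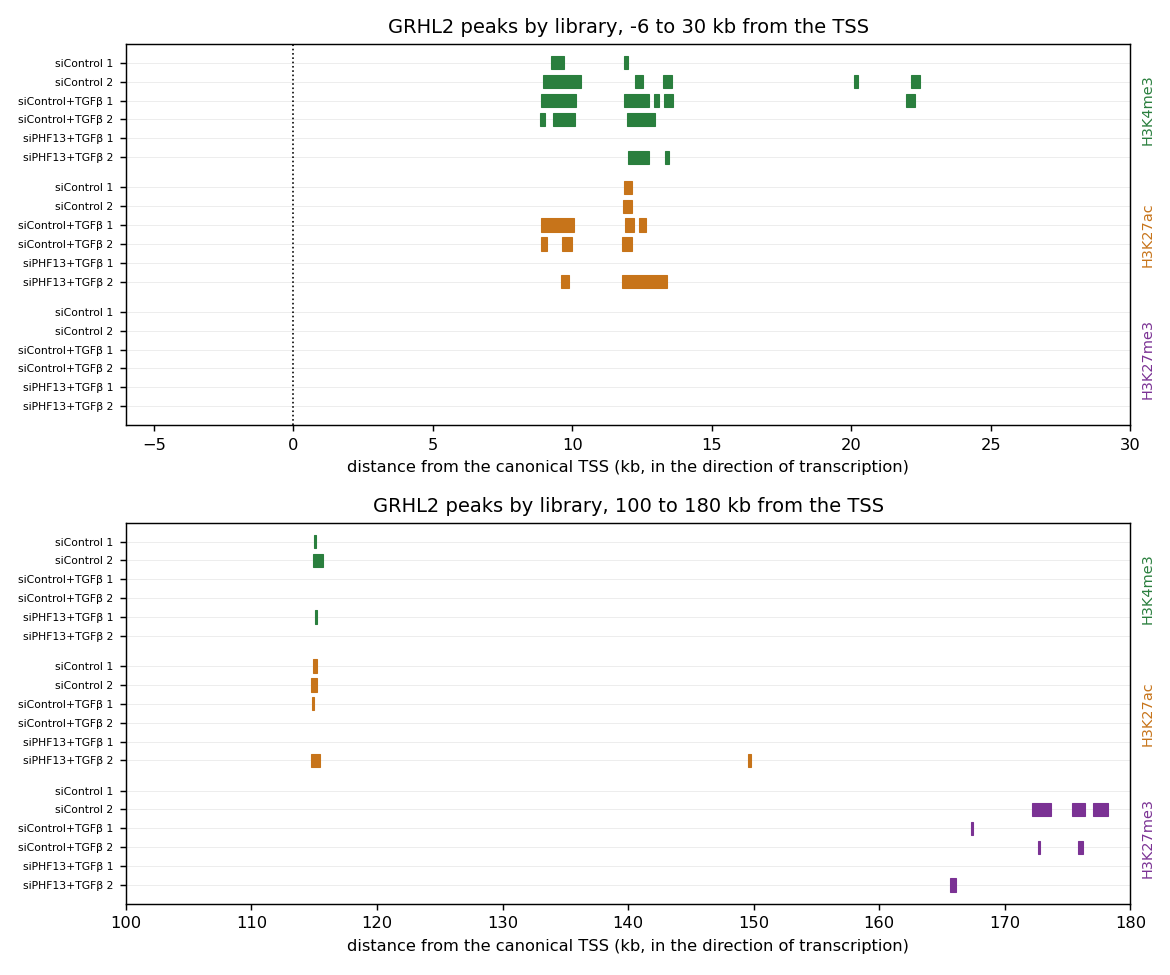
H3K4me3, H3K27ac and H3K27me3 peaks in the GRHL2 gene by library, as bars over the distance from the TSS in kb, in 2 ranges of the gene. H3K27ac is listed in intron 1 in 5 of 6 libraries, and no peak is listed at the TSS.

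Of the other genes, CDH3 and OVOL2 had H3K27ac in the gene body outside the windows. The CDH3 peaks, in intron 2, covered 503 bp in siControl replicate 2, 1696 bp in siPHF13+TGFβ replicate 2 and 0 bp in the other 4 lists. The OVOL2 region, at 87685 to 90166 bp from its TSS, was acetylated over 329 to 2482 bp in all 6 lists and overlaps the TSS of SNX5, so it cannot be credited to OVOL2. Over the 10323 coding genes with at least 10000 bp of body outside the windows, H3K27ac was listed in the body of 5.64% in siPHF13+TGFβ replicate 1 and of 15.3% to 30.6% in the other lists.

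To ask how TGFβ treatment related to these marks, siControl+TGFβ was compared with siControl. No gene of the group passed, and neither did any other: limma with Benjamini-Hochberg adjustment called 0 of 15616 genes for H3K4me3, 0 of 12727 for H3K27ac and 0 of 8593 for H3K27me3 at an adjusted p of 0.05. At an unadjusted p under 0.05 limma gave 492 genes higher (3.15%) and 5 lower (0.032%) for H3K4me3, 18 (0.141%) and 0 for H3K27ac, and 3 (0.0349%) and 41 (0.477%) for H3K27me3, none of them in the group. The smallest adjusted p among the 9 genes tested for H3K4me3 was 0.865, by limma with Benjamini-Hochberg adjustment, and it was 0.986 among the 3 tested for H3K27ac and 1.0 among the 7 tested for H3K27me3. In single comparisons, 2 libraries against 2 cannot give an exact permutation p under 0.3333 (two-sided), so the libraries are compared by whether the groups overlap. H3K4me3 was longer in both siControl+TGFβ libraries for CDH2, CDH3 and ESRP2, 3 of 9 genes, where 47.4% of all genes tested were, and shorter for 0, where 2.04% were. The log2 change of CDH2 H3K4me3 was 0.53 (SE 0.36, n = 2 per group). The median log2 change of the 9 genes was 0.24, and that of all genes tested was 0.13.

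H3K27ac was longer in both siControl+TGFβ libraries at all 3 genes tested, CDH2, EPCAM and ESRP2, where 56.3% of all genes tested were and 0.0786% were shorter. With every list reduced to its 6004 strongest peaks, 0 of these 3 genes and 22.5% of all genes were. The log2 change was largest for CDH2, at 2.06 with an SE of 1.92, and the median of the 3 was 1.00 against 0.60 over all genes tested. H3K27me3 was longer in both libraries for CDH1 alone, 1 of 7 genes beside 6.0% of all genes tested, and shorter for 0 beside 7.19%. In rank, H3K4me3 was lower in both siControl+TGFβ libraries for CDH1, CDH11 and EPCAM, 3 of 9 genes beside 11.6% of all, and higher for 0 beside 23.4%. The H3K27ac rank was higher for CDH2 and EPCAM, beside 40.3% of all, and lower for 0 beside 2.53%. Of H3K27me3 ranks, that of ESRP1 was higher, beside 9.89% of all genes, and those of CDH1 and CDH11 were lower, beside 15.3%. CDH1 thus had a longer and lower-ranked H3K27me3 peak in both siControl+TGFβ libraries.

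To ask how PHF13 depletion related to the marks under TGFβ, siPHF13+TGFβ was compared with siControl+TGFβ. This comparison shares the siControl+TGFβ libraries with the one above, so the values of the 2 are not independent. Limma again called 0 genes for each mark at an adjusted p of 0.05, with 1 gene higher (0.0064%) and 1607 lower (10.3%) at an unadjusted p under 0.05 for H3K4me3, 0 and 189 (1.49%) for H3K27ac, and 1 (0.0116%) and 111 (1.29%) for H3K27me3. None of these genes was in the group, where the smallest limma adjusted p (Benjamini-Hochberg) was 0.387 for H3K4me3, 0.717 for H3K27ac and 0.847 for H3K27me3. H3K4me3 was shorter in both siPHF13+TGFβ libraries for CDH3, 1 of 9 genes, where 62.0% of all genes tested were, and longer for 0, where 0.269% were. The log2 change of CDH3 was -0.72 (SE 0.32, n = 2 per group). Without siPHF13+TGFβ replicate 1, the shortest list, ESRP2 was longer, beside 10.4% of all genes. CDH3 stays shorter by construction, beside 63.4%, because both siPHF13+TGFβ libraries had to be shorter for it to be named.

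In rank, H3K4me3 was higher in both siPHF13+TGFβ libraries for CDH1 and EPCAM, 2 of 9 genes beside 7.65% of all genes tested. CDH3, CDH11, ESRP1, ESRP2 and OVOL2 were lower, 5 of 9 beside 34.3%. Without siPHF13+TGFβ replicate 1, no further gene joined these 2 and 5, beside 22.9% and 44.6% of all genes. Genes called with both libraries stay called with either of them by construction, so their staying does not test the part of replicate 1. H3K27ac groups overlapped for each of the 3 genes, beside 10.1% of all genes that were shorter and 0.0236% that were longer. The H3K27ac ranks overlapped for all 3 too, beside 21.3% lower and 0.393% higher. siPHF13+TGFβ replicate 1 had 158, 252 and 182 bp of H3K27ac at CDH2, EPCAM and ESRP2, and replicate 2 had 1662, 1379 and 1860 bp. Without replicate 1, CDH2 and ESRP2 were longer than in both siControl+TGFβ libraries, beside 29.6% of all genes, so that 1 library decides the direction. H3K27me3 was shorter in both siPHF13+TGFβ libraries for CDH1, CDH3, CDH11 and EPCAM, 4 of 7 genes beside 29.9% of all, and longer for 0 beside 1.12%. For CDH11 and EPCAM the margin was narrow. The lower siControl+TGFβ and the higher siPHF13+TGFβ library had 4152 and 4144 bp at CDH11, and 1663 and 1621 bp at EPCAM. For CDH3 the log2 change was -2.95 with an SE of 1.63. The strongest H3K27me3 peak ranked higher in both libraries for CDH11 and EPCAM, 2 of 7 genes beside 5.0%, and lower for 0 beside 26.5%. Without replicate 1, the 4 genes stay shorter by the same construction, and no other gene of the group joined them, beside 30.5% of all genes. The rank was then higher for 6 of 7 genes, all but CDH3, beside 31.5%. With lists of equal length, CDH1, CDH3 and CDH11 were shorter, 3 of 7 beside 22.3%, and the mean difference of EPCAM turned from -582.5 to 249 bp. The length of the siPHF13+TGFβ replicate 1 lists moved with these values, and its part in them was not tested.

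To see whether H3K4me3 and H3K27me3 lay on the same bases, stretches listed in both libraries of a group were intersected. At ESRP1 and OVOL1, 100% of the H3K4me3 bases were also under H3K27me3 in all 3 groups. At OVOL2 this was 100% in siControl and siControl+TGFβ and 83.8% in siPHF13+TGFβ. At CDH1 the share was 44.8% without TGFβ, 87.4% with TGFβ and 0% with TGFβ and siPHF13. CDH3 had 16.6%, 100% and 0%, and EPCAM had 0%, 42.8% and 0% in these groups. The EPCAM share counts H3K4me3 of both start regions, and the upstream one held no H3K27me3 in any list. Its 1110 of 2593 bp in siControl+TGFβ therefore lay at the canonical TSS, where H3K4me3 covered 1385 and 1140 bp in the 2 libraries. CDH11 had 463 of 947 bp, 1237 of 1237 bp and 217 of 1207 bp. The share was therefore highest in siControl+TGFβ for the 3 cadherins and EPCAM, each of which had a short or absent H3K27me3 peak in siPHF13+TGFβ replicate 1. Each also had less H3K27me3 in siControl replicate 1 than in siControl replicate 2, lists that covered 105 and 293 Mb. With 1 value per group these shares have no replicate error, and they can fall whenever either library lacks a peak or has a shorter one. The difference between siControl and siControl+TGFβ in these shares was therefore not tested.

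Among related genes, 4 of 5 catenins, 7 of 17 other cadherins and 11 of 14 other epithelial genes had H3K4me3 in all 6 lists. The state of CDH1, with H3K4me3 and H3K27me3 but no H3K27ac, was found at 0 of 5 catenins, at 3 of 17 other cadherins (CDH6, CDH12 and CDH22) and at 3 of 14 other epithelial genes (SPINT1 and CRB3 among them). CTNNB1, which encodes β-catenin, had H3K4me3 over 1985 and 2544 bp (siControl), 2756 and 2661 bp (siControl+TGFβ) and 2020 and 2676 bp (siPHF13+TGFβ), with both siControl+TGFβ libraries above siControl. SPINT1, which encodes an inhibitor of epithelial serine proteases, had H3K27me3 over 3109 and 5771 bp, 6171 and 4640 bp, and 2049 and 3764 bp in these groups. Its siPHF13+TGFβ libraries were both below siControl+TGFβ. Limma with Benjamini-Hochberg adjustment called 0 genes of these lists for any mark.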

How the data were processed

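Peak lists of H3K4me3, H3K27ac and H3K27me3 in 3 groups of PANC-1 cells, with 2 libraries each, were used. Groups were taken from the labels, and the 6 inputs were not analysed here. According to the study's methods and the submitters' processing notes, the authors trimmed reads with Trim Galore 0.4.1, aligned them to hg19 with Bowtie2 2.4.1, removed duplicates with Picard and called peaks in each library against input with MACS2 2.2.7.1. The deposited values of a peak are its fold enrichment, a ratio over input, the −log10 of its p-value and q-value, and a score that follows the q-value. The lowest deposited −log10 q was 1.30 in the narrow lists and 1.00 in the H3K27me3 lists. The narrow lists thus reach a looser limit than the stated q of 0.001, which is a −log10 q of 3. The lists hold no read counts, so depth is unknown, and a deeper or better enriched library gives more and wider peaks.

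Windows of 5 kb around TSSs of 20163 coding genes (GENCODE, GRCh37) were intersected with the lists (Python 3.11.15, pandas 2.3.3). Log2(bp + 100) was fitted across all genes with a peak in at least 2 of the 6 lists, using limma 3.58.1 (R 4.3.3, trended and robust variance), with both comparisons in 1 fit and Benjamini-Hochberg adjustment. Fold changes on this scale understate the change of short peaks. A gene was called non-overlapping when both libraries of one group were above both of the other. Nothing in the labels says that libraries came from separate cultures, so p-values measure the spread between libraries, which may be technical. The rule named all 10 members, PHF13, and up to 3 related genes a list with the largest non-overlapping difference. PECAM1, listed as an endothelial marker, was not found by that symbol in the annotation and was not used here. The members and lists were chosen with earlier results of these data known. Alternatives were windows of 2.5 kb, the 5′ end alone, a pseudocount of 500 bp, no filter, equal list lengths, the stronger 50% of peaks, a −log10 q of 3, ranks, a replicate block and leaving out each library. The limma step was tested on simulated data. Some promoter sequences and related genes are not reported here.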

Additional observations from a re-analysis of the deposited data

How the results depend on the processing

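Of 167 values recomputed for the main results, 159 were labelled the same, as were 342 of 366 for single genes. A count of genes was the same when equal to the reported count or within 1.5 times it. Many of the 167 values are counts of limma calls, which were 0 in all 6 reported fits, so 0 beside 0 was labelled the same. With 2 libraries per group few genes can be called, so such agreement says little about the marks. A difference in length, which all single-gene values are, was the same when within the pooled SD between replicates of the reported one. That SD can exceed the difference, so a value of opposite sign could be labelled the same. Fitting ranks in place of lengths gave 3 H3K4me3 calls for siControl+TGFβ against siControl and 4 for siPHF13+TGFβ against siControl+TGFβ, against 0 for length. The difference in summed H3K4me3 length of the 10 genes, siControl+TGFβ minus siControl, was 2584 bp and -3186 bp with the stronger 50% of peaks. For H3K27ac it was 1592 bp, and -511.5 bp with equal list lengths, which also left 1 gene with H3K27ac in its body against 3. The state with H3K4me3 and H3K27me3 but no H3K27ac held 6 of the 10 genes (8.31% of coding genes). It held 0 (4.14%) with the stronger 50% of peaks and 5 (8.22%) with the 5′ end alone, where CDH3 had no mark. The state with H3K4me3 and H3K27ac but no H3K27me3 held 2 genes (CDH2 and ESRP2, 36.8% of coding genes). It held 0 with equal list lengths (15.5%), 0 with the stronger 50% of peaks (25.5%) and 1 at a −log10 q of 3 (35.3%). With the 5′ end alone it held 3 (36.6%), EPCAM being added. The cause of these shifts was not tested.

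Leaving out each library in turn, with a lone library assumed to vary like the other groups, gave 0 to 10164 limma calls for H3K27ac and 0 to 1525 for H3K27me3 in siPHF13+TGFβ against siControl+TGFβ, both highest without siPHF13+TGFβ replicate 2. It gave 0 to 0 calls in each of the other 4 fits. The summed difference, siControl+TGFβ minus siControl, ran from -155.5 to 5322 bp for H3K4me3, 973.5 to 2210 bp for H3K27ac and -11597 to 19431 bp for H3K27me3, against 3917 bp with all libraries. For siPHF13+TGFβ minus siControl+TGFβ it ran from -6836 to -472.5 bp, -3378 to 931 bp and -41797 to -1287 bp, against -3654, -1224 and -21542 bp. The siControl+TGFβ means of these sums were 18713.5, 3970 and 61448 bp. Over all coding genes the same differences were -5889199.5, -7797566 and -14091976 bp, from means of 34813079.5, 19543471.5 and 40850703.5 bp. For siControl+TGFβ minus siControl they were 3639490.5, 7331543.5 and -819104 bp over all coding genes. A replicate block gave 0 calls in all 6 fits. Correlations across genes between the replicate differences of 2 groups were -0.411, -0.237 and -0.0387 for siControl with siControl+TGFβ (H3K4me3, H3K27ac and H3K27me3), -0.284, -0.0915 and 0.0114 for siControl+TGFβ with siPHF13+TGFβ, and 0.506, 0.258 and 0.173 for siControl with siPHF13+TGFβ. The labels name no shared batch, and the numbers were not taken to pair the libraries. With no read counts and 2 libraries per group, differences of the size of those between replicates were not detectable.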

Other observations

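The coding genes whose lengths under peaks over the 18 lists were most like those of CDH1 included TBX15 and TNNI3, at Euclidean distances of 17.3 and 19.0 between the square roots of covered bp, where the median over all genes was 116. For CDH2 they were SH3RF1, KLHL28 and TOGARAM1, the first at 15.9 and the others at 16, with a median of 79.9, and the last 2 share their windows with each other. The distances describe the marks in these lists, and no shared function or control was tested.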
